A study of Mus musculus with 9 samples.

Results

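*Ripk1*, *Ripk3*, *Mlkl*, *Casp8*, *Fadd*, *Tradd*, *Cflar* and *Fas* encode 8 core components of death receptor signalling, and their transcripts were examined in the large intestine of mice with missense mutations in *Muc2*, the gene of the main secreted intestinal mucin. Members were the probe sets paired with 1 of these gene symbols and no other. Of the 8 genes, 7 had such a probe set, 14 in all, among 18193 genes with a probe set of their own. *Ripk1* had none in the annotation table used and was not analysed here. Of the 14 probe sets, 13 passed the filter on low signals (a mean log2 signal over the 9 arrays of at least 6.43, a signal of 85.9), and all 7 genes were among the 11453 tested. None of the 7 passed the filter only through the mutant mice, since the lowest wild-type signal of their brightest probe sets was 334.3.

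RNA of 3 wild-type, 3 *Winnie* and 3 *Eeyore* mice was hybridised to Affymetrix mouse arrays, 1 array per mouse, after the distal and proximal large intestine of each mouse had been pooled. All mice were 8 wk old and labelled male. Wild-type mice were C57BL/6. *Winnie* mice were C57BL/6 from a founder treated with the mutagen N-ethyl-N-nitrosourea and carry tyrosine in place of a cysteine of the D3 domain of Muc2. *Eeyore* mice came from another such founder, are of mixed C57BL/6 and NOD-SCID strain, and carry proline in place of a serine of the D4 domain, so that strain cannot be told apart from the *Muc2* allele in any comparison of *Eeyore* mice, with wild-type or with *Winnie*. Each strain stems from 1 founder.

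Death receptors such as Fas and TNF receptor 1 recruit the adaptors Fadd and Tradd, which assemble Ripk1 and caspase-8 into signalling complexes. Active caspase-8 starts apoptosis and, held in check by the protein c-FLIP (*Cflar*), also cleaves Ripk1 and Ripk3. Where caspase-8 is not active, Ripk3 phosphorylates Mlkl, which breaks the plasma membrane in the form of death called necroptosis. In the intestine this balance is known for its part in the survival of epithelial cells and in inflammation.

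The arrays were checked before the genes were read. *Muc2* had a mean signal of 76999 in wild-type mice, against 32081 in *Winnie* and 35110.0 in *Eeyore*, which is a level and no check of the mutations. *Xist*, expressed from the inactive X chromosome of females, had a mean signal of 7849 in wild-type mice against 38.4 in *Winnie* and 83.9 in *Eeyore* mice, and the Y-linked *Eif2s3y* had 17.6 against 1291 and 1259.7. The wild-type mice thus went against their male label, and a difference by sex cannot be told apart from the *Muc2* genotype in any comparison with them. This holds for each wild-type array, so no comparison could be repeated without those arrays. No epithelial or smooth muscle marker had a group mean in the dim range (below 41.1, the highest 25th percentile of any array), as fits the tissue label. The median signal of a wild-type array was 118.3 to 128.6, and that of a mutant array 87.9 to 99.3. In these bulk samples, more cells of a type and more RNA per cell cannot be told apart.

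The stretches around the transcription start of *Ripk3*, *Mlkl* and *Casp8*, 3 of the 4 genes that rose against wild-type below, are shown first, with that of *Cflar*, the neighbour of *Casp8* on chromosome 1 whose brightest probe set did not pass the test. The sequences are from RefSeq on GRCm38.p6, 250 bases before to 50 bases after the start, written 5′ to 3′ on the strand of the gene. *Ripk3* is the window chr14:55788808-55789107 on the minus strand, *Mlkl* chr8:111338156-111338455 on the minus strand, *Casp8* chr1:58802252-58802551 on the plus strand, and *Cflar* chr1:58711241-58711540 on the plus strand. The *Casp8* window is the 1 start that the table gives for this gene and lies 7.27 kb inside the span of the gene given below, so other starts of *Casp8* are not shown. Capitals mark matches on either strand to the 5 motifs described next.
Ripk3: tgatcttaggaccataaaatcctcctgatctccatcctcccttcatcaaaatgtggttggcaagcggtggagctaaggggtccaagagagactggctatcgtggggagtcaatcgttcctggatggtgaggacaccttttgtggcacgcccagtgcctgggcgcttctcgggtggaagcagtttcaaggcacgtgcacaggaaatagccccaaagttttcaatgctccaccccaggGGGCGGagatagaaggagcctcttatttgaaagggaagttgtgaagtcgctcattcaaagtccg
Mlkl: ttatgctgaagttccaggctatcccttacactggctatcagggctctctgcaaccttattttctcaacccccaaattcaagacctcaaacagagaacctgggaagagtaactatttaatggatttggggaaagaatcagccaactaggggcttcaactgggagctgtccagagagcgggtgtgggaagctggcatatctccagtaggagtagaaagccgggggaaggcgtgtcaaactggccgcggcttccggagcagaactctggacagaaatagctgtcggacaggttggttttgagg
Casp8: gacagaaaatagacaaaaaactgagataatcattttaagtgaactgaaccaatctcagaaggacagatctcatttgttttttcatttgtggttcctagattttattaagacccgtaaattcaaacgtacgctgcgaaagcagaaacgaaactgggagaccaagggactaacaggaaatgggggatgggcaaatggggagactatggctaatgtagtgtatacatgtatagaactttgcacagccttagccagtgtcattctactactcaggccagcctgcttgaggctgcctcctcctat
Cflar: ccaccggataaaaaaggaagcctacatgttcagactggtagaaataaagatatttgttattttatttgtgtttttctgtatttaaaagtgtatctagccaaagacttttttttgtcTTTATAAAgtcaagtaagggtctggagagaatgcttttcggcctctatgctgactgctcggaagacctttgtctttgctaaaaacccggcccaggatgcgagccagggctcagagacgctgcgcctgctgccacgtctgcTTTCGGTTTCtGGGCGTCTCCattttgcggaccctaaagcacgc

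The motifs searched were the core of an interferon-stimulated response element (GAAANNGAAA), a gamma-activated site (TTCNNNGAA), a loose NF-kappaB site (GGGNNNNNCC), a GC box (GGGCGG) and a TATA box (TATAAA), each on both strands. Of 32851 promoter windows of this length in the table, 3.44% held the first, 8.30% the second, 50.8% the third, 35.7% the GC box and 13.6% the TATA box. The *Ripk3* window held 1 GC box, beginning 14 bases before the start. The windows of *Mlkl* and *Casp8* held none of the 5. The *Cflar* window held an interferon-stimulated core from base 7 and an NF-kappaB match from base 18 after the start, and a TATA box on both strands that overlap each other, from 134 and 132 bases before it. *Fas* held a gamma-activated site, 3 NF-kappaB matches and 2 GC boxes, 1 of which lies within an NF-kappaB match. *Fadd* held 1 NF-kappaB match and 2 GC boxes. A match is a string of letters and was not tested as a binding site, and a window with no match says nothing of the factor. *Tradd*, the other gene that rose, is not in the table.

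Of the 7 genes tested by their brightest probe set, 4 rose in *Winnie* mice against wild-type, 0 fell and 3 did not pass the test (limma, adjusted p under 0.05), where 11.3% of all tested genes rose and 11.9% fell. In *Eeyore* mice the count was likewise 4 higher, 0 lower and 3 not passed, where 14.0% of all tested genes rose and 16.6% fell. At an unadjusted p under 0.05 in limma, 0 were lower in either strain. The same 4 genes rose in both strains, *Ripk3*, *Mlkl*, *Casp8* and *Tradd*, and the comparisons share the wild-type mice. The 7 genes were chosen with earlier results of these data known, so these counts describe them and are no independent support. The median log2 fold change of the 7 was 0.52 in *Winnie* and 0.79 in *Eeyore* mice, beside -0.05 and -0.04 over all tested genes. Between *Eeyore* and *Winnie* mice 0 of the 7 differed in limma, where 2.59% of all tested genes did. At an unadjusted p under 0.05 it was 1, *Tradd*.

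**Figure D1:**
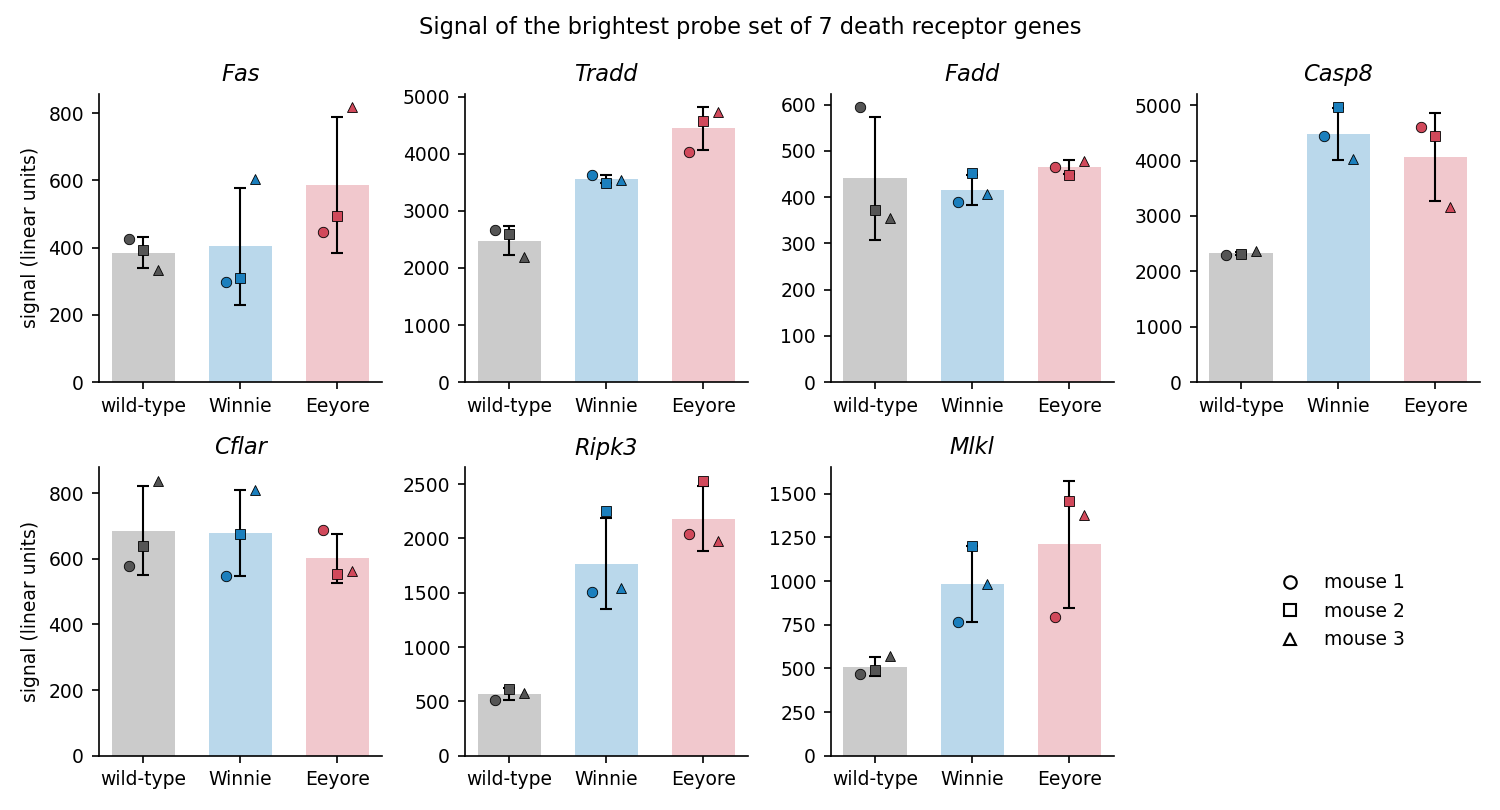
Deposited signal (linear units, each vertical axis from 0) of the brightest probe set of each of the 7 genes in wild-type, *Winnie* and *Eeyore* mice. Bars are means of 3 mice, error bars 1 SD, and symbols mark mouse 1, 2 and 3. For *Ripk3*, *Mlkl*, *Casp8* and *Tradd* every mutant mouse lies above every wild-type mouse, while the groups overlap for *Fadd* and *Cflar*. For *Fas* the *Eeyore* mice lie above wild-type and the *Winnie* mice overlap it. The share of all tested genes without overlap was not counted, so the lack of overlap is a description only.

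*Fas* encodes the receptor for Fas ligand. Its 1 probe set (1460251_at; gene at chr19:34290647-34327775) had signals of 425.6, 394.2 and 334.3 in wild-type mice 1 to 3. In *Winnie* mice they were 297.5, 308.7 and 604.5, and in *Eeyore* mice 445.7, 494.3 and 817.7. Mouse 3 was the highest of each mutant strain, *Winnie* overlapped wild-type, and all *Eeyore* mice lay above wild-type. The means were 384.7 ± 46.4, 403.6 ± 174.1 and 585.9 ± 202.2 (SD, n = 3 each). The log2 fold change was -0.0050 (SE 0.29, adjusted p = 0.993 in limma) in *Winnie* and 0.56 (SE 0.29, adjusted p = 0.168 in limma) in *Eeyore* mice. The 95% interval in *Eeyore* mice, -0.08 to 1.20, takes in a rise as large as that of *Casp8*. Centring each array on its median, which moved the median of all tested genes from -0.04 to 0.28 in *Eeyore* mice, gave *Fas* 0.89 with an adjusted p of 0.0282 in limma.

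*Tradd*, the adaptor that TNF receptor 1 recruits directly, had 3 probe sets (gene at chr8:105258575-105264594). The brightest (1452622_a_at) gave 2659.2, 2595.4 and 2184.8 for the wild-type mice, 3625.7, 3492.6 and 3547.4 for *Winnie* and 4029.2, 4567.7 and 4738.3 for *Eeyore*. The 3 groups did not overlap and stood in the order wild-type, *Winnie*, *Eeyore*. The means were 2479.8 ± 257.5, 3555.2 ± 66.9 and 4445.1 ± 370.1 (SD, n = 3 each). In limma the log2 fold change was 0.52 (SE 0.11, adjusted p = 0.00571), 1.44-fold, in *Winnie* and 0.84 (SE 0.11, adjusted p = 0.000238), 1.79-fold, in *Eeyore* mice. The difference between the mutants, 0.32 on the log2 scale with a 95% interval of 0.08 to 0.55, did not pass after adjustment (adjusted p = 0.171 in limma).

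The second *Tradd* probe set (1429117_at) rose by 0.64 in *Winnie* (adjusted p = 0.00982 in limma) and 0.91 in *Eeyore* mice (adjusted p = 0.000925 in limma), again with no overlap with wild-type. The third (1439910_a_at) had the lowest signals of the 3, between 148.7 and 237.9 over all 9 mice, though above the filter. It gave a log2 change of -0.13 for *Winnie* (adjusted p = 0.770 in limma) and 0.18 for *Eeyore* (adjusted p = 0.646 in limma). With the 3 averaged, the *Winnie* value was 0.35 and no longer passed (adjusted p = 0.0589 in limma). The 2 brighter probe sets therefore carried the rise of *Tradd*, and the third did not show it.

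*Fadd*, the adaptor that binds caspase-8 to Fas, lay at chr7:144578323-144582441 and had 2 probe sets. The brighter (1416888_at) gave 594.6, 372.7 and 355.9 for the wild-type mice, 388.9, 451.8 and 406.7 for *Winnie* and 466.0, 448.6 and 479.0 for *Eeyore*. Wild-type mouse 1 was the highest of all 9, and the groups overlapped. The log2 fold changes were -0.05 (SE 0.20, adjusted p = 0.891 in limma; 95% interval -0.49 to 0.39) and 0.11 (SE 0.20, adjusted p = 0.701 in limma; -0.33 to 0.56). The dimmer probe set (1446499_at) gave 0.11 and 0.20 (adjusted p = 0.858 and 0.721 in limma).

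*Casp8* encodes caspase-8, the protease at the fork between survival, apoptosis and necroptosis. Its 1 probe set (1424552_at; gene at chr1:58795233-58847503) gave 2296.8, 2317.0 and 2358.9 in wild-type mice. *Winnie* mice had 4433.9, 4961.0 and 4035.5, and *Eeyore* mice 4596.3, 4433.2 and 3157.4. The wild-type mice lay close together, and every mutant mouse, the lowest being *Eeyore* mouse 3, stood above them. The means were 2324.2 ± 31.6, 4476.8 ± 464.3 and 4062.3 ± 787.9 (SD, n = 3 each). In limma the log2 fold change was 0.94 (SE 0.14, adjusted p = 0.00101), 1.92-fold, in *Winnie* and 0.79 (SE 0.14, adjusted p = 0.00172), 1.72-fold, in *Eeyore* mice. *Casp8* was the only one of the 4 genes that rose whose mean was lower in *Eeyore* than in *Winnie* mice, by -0.15 on the log2 scale with a 95% interval of -0.46 to 0.15 (adjusted p = 0.652 in limma).

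*Cflar*, which encodes c-FLIP, the catalytically inactive relative that pairs with caspase-8, lies 36.3 kb from *Casp8* (chr1:58711311-58758884) and had 5 probe sets that differed among themselves. The brightest (1424996_at) gave 578.8, 639.1 and 837.8 for the wild-type mice, 548.1, 675.5 and 810.3 for *Winnie* and 687.7, 554.5 and 563.2 for *Eeyore*. These groups overlapped, with a log2 change of -0.02 for *Winnie* (SE 0.19, adjusted p = 0.966 in limma) and -0.18 for *Eeyore* (SE 0.19, adjusted p = 0.516 in limma). In contrast, the probe set 1449317_at gave 306.7, 335.8 and 246.2 for the wild-type mice, 457.5, 523.8 and 478.5 for *Winnie* and 509.7, 489.3 and 479.9 for *Eeyore*. Every mutant mouse lay above wild-type there, and it rose by 0.73 in *Winnie* (SE 0.17, adjusted p = 0.0111 in limma) and 0.75 in *Eeyore* mice (SE 0.17, adjusted p = 0.00687 in limma). Of the others, 1425686_at gave -0.19 and -0.09 (adjusted p = 0.459 and 0.731 in limma), and 1425687_at -0.01 and -0.18 (adjusted p = 0.978 and 0.657 in limma). The probe set 1453482_at did not pass the filter and ranged from 8.55 to 131.4 over the mice. Thus 1 of the 4 tested *Cflar* probe sets rose in both strains and the other 3 did not pass the test in either. The table does not give the transcript that each probe set reads.

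*Ripk3* encodes the kinase that commits a cell to necroptosis, and showed the largest fold change of the 7 genes in both strains. Its 1 probe set (1448449_at; gene at chr14:55784995-55788857) gave 508.6, 612.3 and 578.7 in wild-type mice. *Winnie* mice had 1510.1, 2254.8 and 1539.6, and *Eeyore* mice 2039.9, 2531.3 and 1978.3. The lowest mutant signal was above the highest wild-type signal, mouse 2 was the highest in each mutant strain, and the mutants overlapped each other. The means were 566.5 ± 52.9, 1768.2 ± 421.7 and 2183.2 ± 303.1 (SD, n = 3 each). In limma the log2 fold change was 1.62 (SE 0.17, adjusted p = 0.00017), 3.08-fold, in *Winnie* and 1.94 (SE 0.17, adjusted p = 2.0e-05), 3.84-fold, in *Eeyore* mice. The difference between the mutants was 0.32 with a 95% interval of -0.05 to 0.69 (adjusted p = 0.406 in limma).

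*Mlkl* encodes the membrane-breaking substrate of Ripk3. Its 1 probe set (1429570_at; gene at chr8:111311255-111338479) gave 468.8, 488.2 and 572.9 for the wild-type mice, 767.8, 1202.9 and 982.5 for *Winnie* and 794.0, 1459.2 and 1381.0 for *Eeyore*. No mutant mouse overlapped wild-type, and mouse 2 was again the highest of each mutant strain. The means were 510.0 ± 55.3, 984.4 ± 217.6 and 1211.4 ± 363.6 (SD, n = 3 each). In limma the log2 fold change was 0.93 (SE 0.23, adjusted p = 0.0151), 1.91-fold, in *Winnie* and 1.20 (SE 0.23, adjusted p = 0.00286), 2.30-fold, in *Eeyore* mice. The *Winnie* call was lost without *Winnie* mouse 2 (0.77, adjusted p = 0.0619 in limma), wild-type mouse 1 (0.87, adjusted p = 0.0555 in limma) or wild-type mouse 2 (0.90, adjusted p = 0.0531 in limma). The difference between the mutants was 0.27 with a 95% interval of -0.23 to 0.78 (adjusted p = 0.631 in limma).

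**Figure D2:**
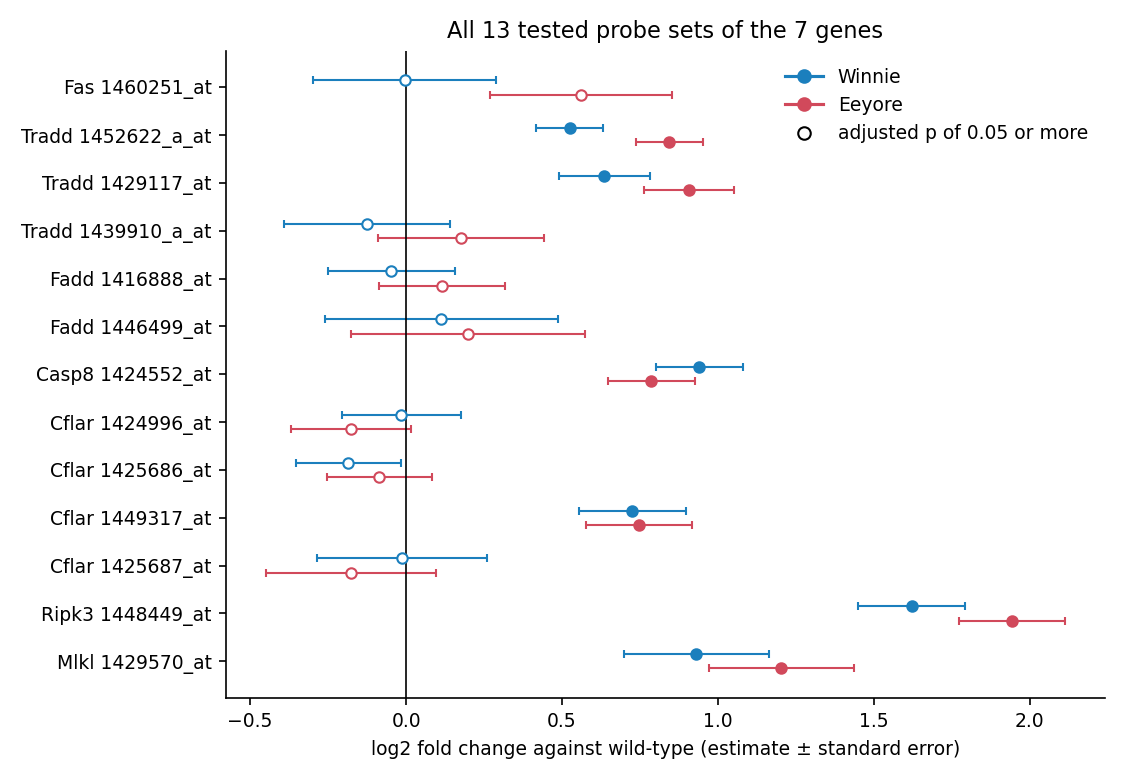
Log2 fold change against wild-type, with its standard error, of the 13 tested probe sets of the 7 genes in *Winnie* and *Eeyore* mice. Filled points have an adjusted p under 0.05 in limma. *Ripk3* lies farthest to the right, at 1.62 and 1.94, and of the 4 *Cflar* probe sets only 1449317_at (0.73 and 0.75) stands apart from 0.

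Marker lists of the cell types of the gut wall stand beside these values, and some of their genes differed between mutant and wild-type mice. All 14 of 14 smooth muscle markers fell in both strains, from a summed signal of 207946 to 213273 in wild-type to 95106 to 104220.0 in *Winnie* and 77231.8 to 86132.7 in *Eeyore*. Of 12 epithelial markers 5 rose in *Winnie* and 8 in *Eeyore* mice and 0 fell in limma (0 at an unadjusted p under 0.05), with sums of 240438 to 249708, 289259 to 301030.0 and 304141 to 332774. Of 9 myeloid markers 2 rose in *Winnie* mice, the neutrophil genes *S100a8* and *S100a9*, and 5 in *Eeyore* mice. The myeloid sums were 7502.6, 7662.3 and 6930.8 for the wild-type mice, 9098.2, 14776.4 and 9435.0 for *Winnie* and 9278.2, 14446.2 and 18679.5 for *Eeyore*. *Winnie* mouse 2, the highest of its strain for *Ripk3* and *Mlkl*, had the highest myeloid sum of its strain too, while *Eeyore* mouse 3, with the highest of all, had the lowest *Ripk3* signal of its strain. For *Mlkl*, *Eeyore* mouse 3 (1381.0) lay near mouse 2 (1459.2), the highest. *Eeyore* mouse 1 was the lowest of its strain for *Mlkl* (794.0) and for the myeloid sum. Of 10 pan-leukocyte markers 0 passed the test in *Winnie* mice in limma (0 at an unadjusted p under 0.05) and 3 rose in *Eeyore* mice, with sums of 7231.6 to 9290.5, 7927.2 to 10325.5 and 9087.4 to 16749.6.

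Of 9 T cell markers 3 were tested, of which 1 (*Thy1*) fell in *Winnie* mice and 0 passed in *Eeyore* mice in limma (1 at an unadjusted p under 0.05), with sums of 952.7 to 1384.8, 567.3 to 864.3 and 731.0 to 1391.7. Of 6 B and plasma cell markers 5 were tested, of which *Cd79b* fell in *Winnie* and *Jchain* rose in *Eeyore* mice, with sums of 17103.6 to 23928.9, 18321 to 25473.4 and 22523.2 to 38084.7. No marker with a probe set was at 0, and *Cd4* was in the dim range. The part of these markers in the changes of the 7 genes was not tested.

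**Figure D3:**
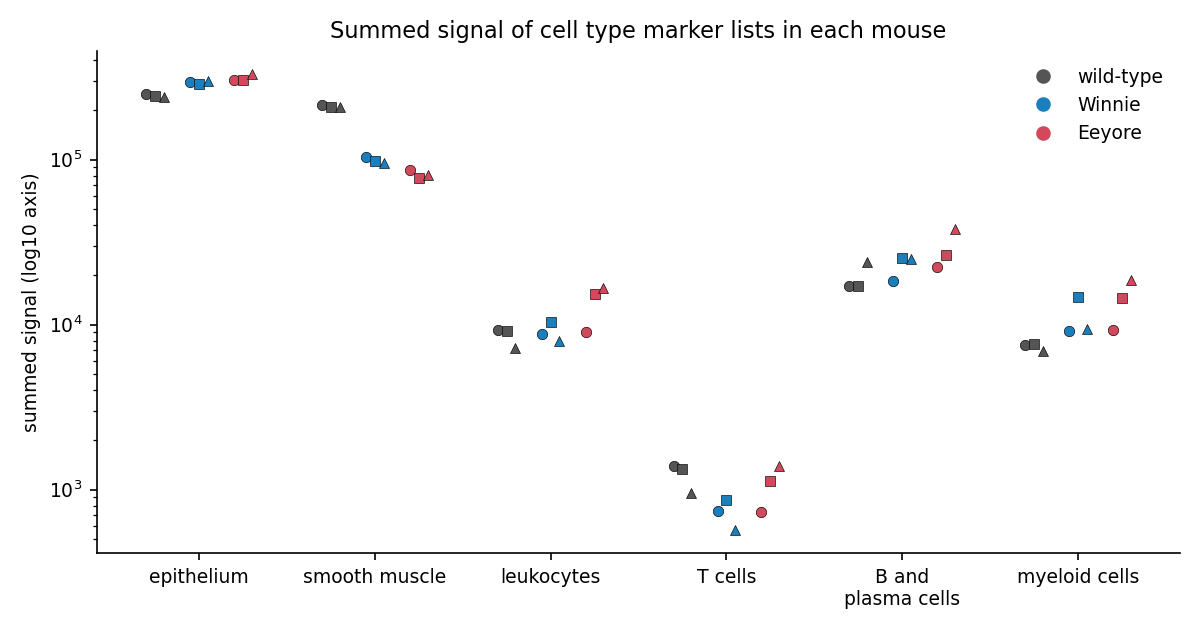
Summed signal (log10 axis) of 6 lists of cell type markers in each of the 9 mice, over the brightest probe set of each marker. Symbols mark mouse 1 (circle), 2 (square) and 3 (triangle) of each group. The smooth muscle sums of all mutant mice, 77231.8 to 104220.0, lie below the lowest wild-type sum, 207946, while the epithelial and myeloid sums lie above wild-type.

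To set the genes against the epithelial content of the samples, the mean log2 signal of the 12 epithelial markers was subtracted from each array, a setting added after the data were seen. It moved the median of all tested genes to -0.31 in *Winnie* and -0.40 in *Eeyore* mice. On this scale *Ripk3* was higher by 1.36 and 1.59 (adjusted p = 0.000465 and 8.1e-05 in limma) and *Casp8* by 0.68 and 0.43 (adjusted p = 0.00645 and 0.0384 in limma). *Mlkl* gave 0.67 and 0.85 (adjusted p = 0.0517 and 0.0142 in limma) and *Tradd* 0.27 and 0.49 (adjusted p = 0.0723 and 0.00319 in limma), so that both lost the call in *Winnie* mice and kept it in *Eeyore* mice. The brightest *Cflar* probe set fell in *Eeyore* mice on this scale (-0.53, adjusted p = 0.0487 in limma).

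A list of 83 other genes of the pathway, ordered by role, gave the setting of the 7. Like the 7, it was chosen with earlier results of these data known. Of these, 74 had a probe set of their own and 64 were tested. In *Winnie* mice 7 rose and 4 fell, and in *Eeyore* mice 15 rose and 2 fell. The shares that rose, 10.9% and 23.4%, stand beside 11.3% and 14.0% of all tested genes, and the shares that fell, 6.25% and 3.12%, beside 11.9% and 16.6%. The 7 that rose in *Winnie* mice also rose in *Eeyore* mice. The median log2 fold changes of the 64 were -0.0084 and 0.05. Of 27 calls of the pathway genes named below, 13 were lost on leaving out 1 of the mice and 11 relative to the epithelial markers. The 3 calls that held under every setting tried were those of *Tnfrsf12a*, *Zbp1* and *Casp14* in *Eeyore* mice. The splits rest on the scaling. With each array centred on its median, 31 rose and 1 fell in *Winnie* mice, while 25 rose and 0 fell in *Eeyore* mice. Relative to the epithelial markers, 4 rose and 16 fell in the former and 6 rose and 24 fell in the latter. The fold changes named below are therefore to be read beside the medians of all tested genes, -0.05 and -0.04.

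Of 8 ligands, 2 (*Tnfsf10* and *Ltb*) were tested and neither passed, while *Fasl*, *Tnf*, *Lta* and *Tnfsf14* were below the filter on low signals. Receptors were the class with the largest share that rose, 3 of 5 tested in *Winnie* and 4 of 5 in *Eeyore* mice. *Tnfrsf1a*, TNF receptor 1, had 1905.6, 1620.3 and 1397.6 for the wild-type mice, 2262.4, 2553.6 and 2196.3 for *Winnie* and 1993.3, 2364.2 and 2170.3 for *Eeyore*. It rose by 0.52 and 0.41 (adjusted p = 0.0167 and 0.0345 in limma), with no overlap, but by only 0.26 and 0.06 relative to the epithelial markers (adjusted p = 0.163 and 0.736 in limma). *Tnfrsf1b*, TNF receptor 2, rose by 1.14 and 0.80 (adjusted p = 0.00948 and 0.0362 in limma), and *Tnfrsf12a*, the receptor of the cytokine TWEAK, by 0.87 and 1.17 (adjusted p = 0.0286 and 0.00513 in limma). Averaging the probe sets ended both *Tnfrsf1b* calls (adjusted p = 0.458 and 0.287 in limma) and the *Winnie* call of *Tnfrsf12a* (adjusted p = 0.0666 in limma). *Ltbr*, the lymphotoxin beta receptor, rose in *Eeyore* mice (0.54, adjusted p = 0.00663 in limma) and gave 0.17 in *Winnie* mice (adjusted p = 0.343 in limma), a difference that did not pass in the comparison of the mutants. Leaving out *Winnie* 2, wild-type 2 or wild-type 3 ended the *Winnie* call of *Tnfrsf1a* (0.41 to 0.52) and, with *Winnie* 1 as well, that of *Tnfrsf12a* (0.73 to 0.86). Leaving out *Eeyore* 2, *Eeyore* 3, wild-type 2 or wild-type 3 ended the *Eeyore* call of *Tnfrsf1a* (0.30 to 0.42), and leaving out *Eeyore* 1, *Eeyore* 2 or any wild-type mouse that of *Tnfrsf1b* (0.60 to 0.87).

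Of 10 adaptors tested, 2 fell in *Winnie* mice and 0 passed in *Eeyore* mice in limma (2 at an unadjusted p under 0.05). *Traf1*, an adaptor of TNF receptors, fell by 1.66 (adjusted p = 0.0159 in limma) on *Winnie* signals of only 51.2 to 76.7, and gave -1.06 in *Eeyore* mice (adjusted p = 0.0756 in limma). All *Winnie* signals of *Traf1* lay below the filter level of 85.9, and wild-type signals were 134.6 to 279.5. The probe set thus passed the filter through the higher signals of the other mice, so this fall was not independent of the filter. The second *Traf1* probe set did not pass the filter. *Daxx*, a nuclear chaperone named for its binding to Fas, fell by 0.48 (adjusted p = 0.0466 in limma), a call that was lost in 12 of 20 other settings, with a value of -0.07 (adjusted p = 0.753 in limma) under median centring. Of 18 genes of the ubiquitin ligases, deubiquitinases and kinases around Ripk1, 1 rose and 2 fell in each strain. *Xiap*, an inhibitor of caspases, rose by 0.52 and 0.51 (adjusted p = 0.013 and 0.0106 in limma). Its other tested probe sets gave 0.47 to 1.45 and 0.30 to 1.58 and passed in neither strain. Both *Xiap* calls ended with the probe sets averaged (adjusted p = 0.0804 and 0.214 in limma). They also ended relative to the epithelial markers (adjusted p = 0.143 and 0.355 in limma). *Tab1* fell in *Winnie* mice by 0.94 (adjusted p = 0.00911 in limma), as did *Rnf31*, the catalytic subunit of the linear ubiquitin ligase, by 0.75 (adjusted p = 0.0151 in limma). *Birc3* fell by 0.32 and *Tab2* by 0.36 in *Eeyore* mice (adjusted p = 0.0488 and 0.0233 in limma). The second *Tab2* probe set fell in both strains, by 0.55 in *Winnie* (adjusted p = 0.00368 in limma) and 0.91 in *Eeyore* mice (adjusted p = 0.000121 in limma). *Tab1* and *Tab2* encode partners of the kinase TAK1, and *Birc3* a ubiquitin ligase of Ripk1. In *Winnie* mice, leaving out *Winnie* 2 or wild-type 2 ended the call of *Traf1* (-1.55 to -1.37), *Winnie* 3 or wild-type 2 that of *Rnf31* (-0.64 to -0.63), wild-type 1 that of *Xiap* (0.48), and any *Winnie* mouse, wild-type 1, wild-type 3 or *Eeyore* 3 that of *Daxx* (-0.54 to -0.40). In *Eeyore* mice, leaving out *Eeyore* 2, *Eeyore* 3, wild-type 2 or wild-type 3 ended the call of the brighter *Tab2* probe set (-0.35 to -0.31), and *Eeyore* 1, *Eeyore* 2, *Winnie* 1 or any wild-type mouse that of *Birc3* (-0.35 to -0.28).

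Of 10 genes that sense or modify necroptosis, 2 rose in *Winnie* and 4 in *Eeyore* mice. *Zbp1*, a nucleic acid sensor that engages Ripk3, had 1234.9, 811.2 and 1111.7 for the wild-type mice, 909.9, 1683.4 and 1163.5 for *Winnie* and 1584.9, 4261.7 and 5463.8 for *Eeyore*. *Eeyore* mice 2 and 3, which had the highest leukocyte sums (15324 and 16749.6), were far above all others, and the part of those cells was not tested. It rose by 1.68 in *Eeyore* mice (adjusted p = 0.00623 in limma) and gave 0.23 in *Winnie* mice (adjusted p = 0.705 in limma). The difference between the mutants was 1.46 and did not pass (adjusted p = 0.0719 in limma). It passed in 1 of 20 other settings, without *Eeyore* mouse 1, the lowest of its strain (1.99, adjusted p = 0.000888 in limma). In the other 19 it did not pass, with values down to 1.10 and an adjusted p of up to 0.239 in limma. *Aurka*, a mitotic kinase, rose by 0.91 in each strain (adjusted p = 0.0027 and 0.00168 in limma), and the chaperone *Hsp90aa1* by 0.68 and 0.76 (adjusted p = 0.00209 and 0.000739 in limma). Neither is particular to necroptosis, since the first drives cell division and the second folds many proteins. With all probe sets averaged, those below the filter included, the calls of both genes ended in both strains. The adjusted p in limma was then 0.123 and 0.213 for *Aurka* and 0.804 and 0.0824 for *Hsp90aa1*. The other tested *Hsp90aa1* probe sets gave 0.29 and 0.89 in *Winnie* mice (adjusted p = 0.144 and 0.000286 in limma).

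Among 7 other caspases tested, 0 passed in *Winnie* mice in limma (3 at an unadjusted p under 0.05) and 2 rose in *Eeyore* mice. *Casp1*, which matures interleukin-1 beta, rose by 0.39 there (adjusted p = 0.015 in limma) and gave 0.30 in *Winnie* mice (adjusted p = 0.0574 in limma). *Casp14*, a caspase of keratinising epithelium, rose by 2.40 in *Eeyore* mice (adjusted p = 0.00795 in limma), but its second probe set gave 0.47 (adjusted p = 0.595 in limma). Of 8 substrates and apoptosome genes, *Cycs*, cytochrome c, rose by 0.62 and 0.67 (adjusted p = 0.00513 and 0.00231 in limma), and *Parp1* rose by 0.43 in *Eeyore* mice (adjusted p = 0.0287 in limma). The other tested *Parp1* probe sets gave 0.36 and 0.08 in *Eeyore* mice and did not pass (adjusted p = 0.127 and 0.710 in limma). The *Casp1* call was lost without *Eeyore* 3 or wild-type 2 (0.30 to 0.38), and that of *Parp1* without any 1 *Eeyore* mouse, wild-type 1 or wild-type 2 (0.36 to 0.44).

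Of 3 gasdermins, which form membrane pores, 0 passed in *Winnie* mice in limma (1 at an unadjusted p under 0.05) and 2 rose in *Eeyore* mice. *Gsdmd* rose by 0.61 (adjusted p = 0.0141 in limma) and *Gsdme* by 0.78 (adjusted p = 0.00205 in limma), but the second *Gsdme* probe set fell by 0.98 (adjusted p = 0.0213 in limma), and the *Gsdmd* call was lost without wild-type 3 (0.53, adjusted p = 0.0513 in limma). *Ripk4*, the 1 other receptor-interacting kinase tested, gave 0.12 and 0.13 and did not pass. Against this list, *Ripk3* in *Eeyore* mice (1.94) stood above every called gene but *Casp14*, and in *Winnie* mice (1.62) above every gene that rose.

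**Figure D4:**
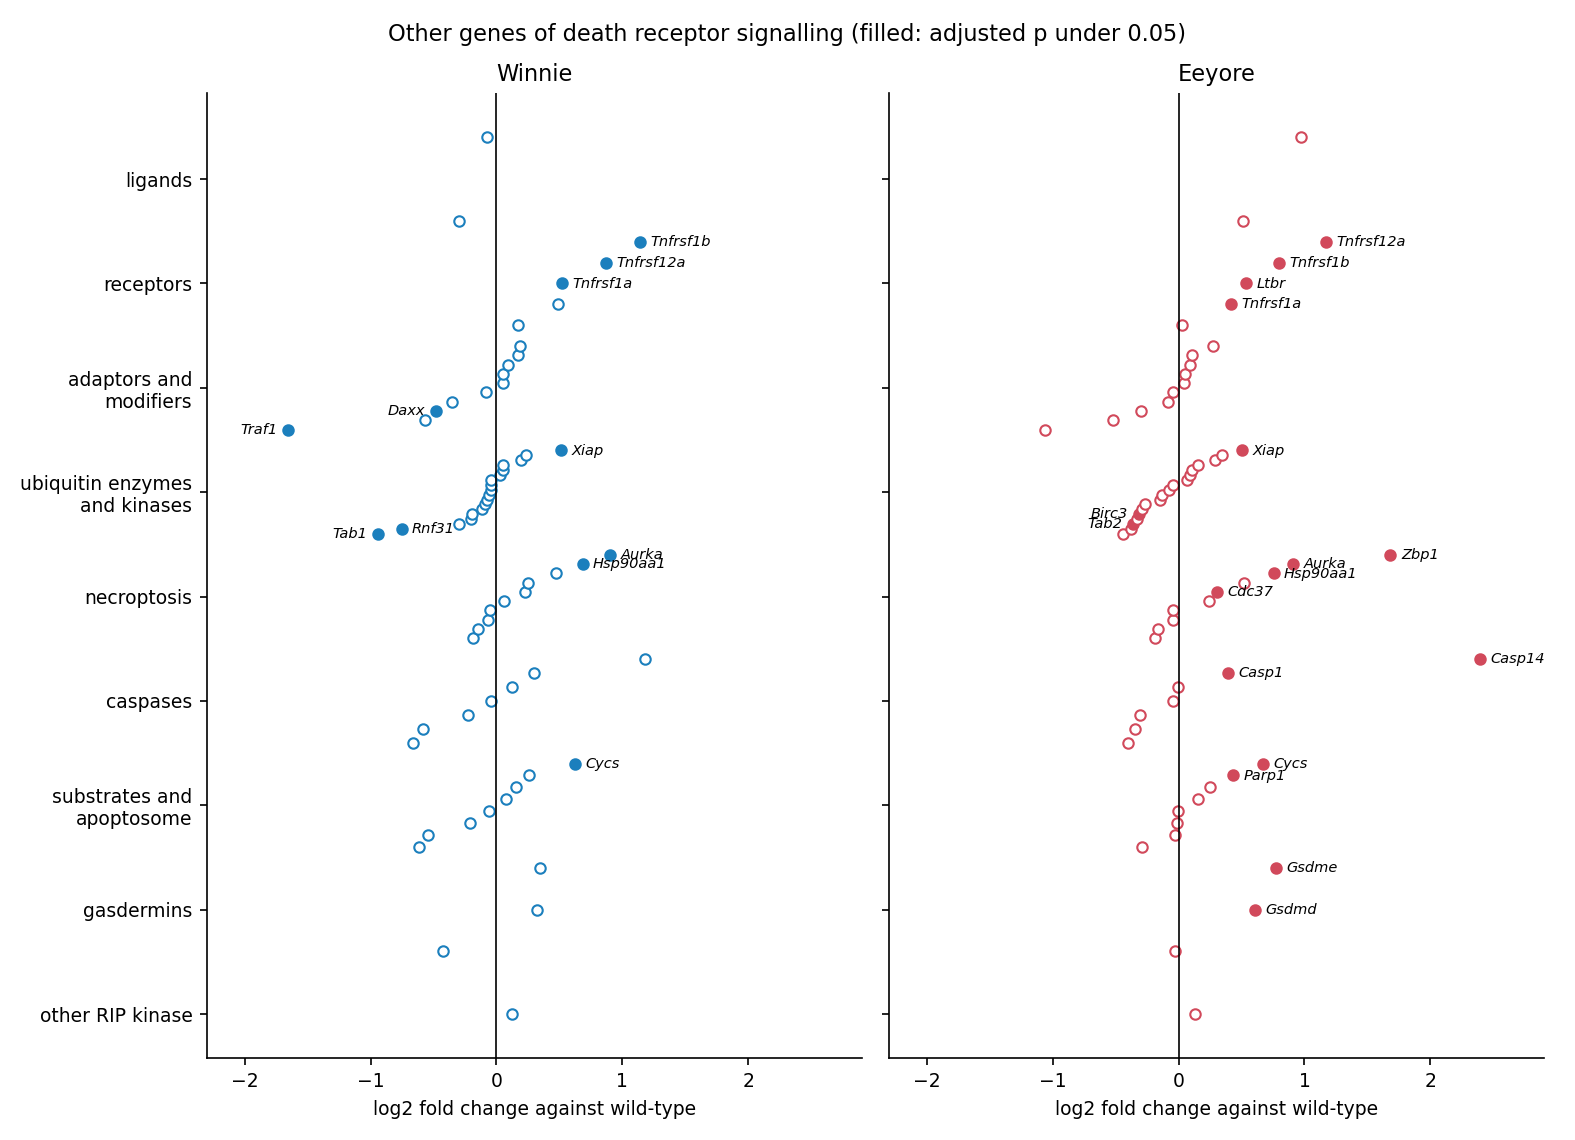
Log2 fold change against wild-type of the 64 other pathway genes tested, by role, in *Winnie* (left) and *Eeyore* mice (right), by the brightest probe set of each gene. Filled points with a name have an adjusted p under 0.05 in limma, 11 in *Winnie* and 17 in *Eeyore* mice. The 5 receptors lie to the right of 0 in both strains, and the adaptors on both sides of it.

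The genes most like *Ripk3* over the 9 mice, by the root mean square difference of log2 signals centred on wild-type, were *Ankrd22* (0.22), *Socs3* (0.28), *2010003K11Rik* (0.31), *Ly6g6e* (0.33) and *Wfdc17* (0.33). Their log2 fold changes were 1.40 to 2.01 in *Winnie* and 1.58 to 1.95 in *Eeyore* mice. Values near those of *Ripk3* follow from the way these genes were chosen. *Socs3* encodes a feedback inhibitor of cytokine signalling. Those most like *Casp8* were *Eef1e1* (0.08), *Rars* (0.10), *Dcun1d5* (0.10), *Fastkd2* (0.11) and *Sdcbp2* (0.11), of which *Rars* encodes arginyl-tRNA synthetase and *Eef1e1* a part of the same multi-synthetase complex. None of the 10 is a member of the pathway list, and the likeness is a description with no test.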

How the data were processed

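The labels describe 9 arrays of total RNA with an RNA integrity score above 8. The authors deposited 1 linear signal intensity for each of 45101 probe sets on each array, and every array had a mean of 500.0 after trimming 2% at each end. The algorithm is not given in the sources used here, and detection calls were not used here. Of 45037 probe sets that are not controls, 34945 were paired with 1 symbol by the platform annotation, 932 with several and 9160 with none. The intensities were taken to log2 with no added signal and no further normalization. The 22519 probe sets at or above the median of mean log2 signal were fitted in limma 3.58.1 (R 4.3.3; lmFit and eBayes with an intensity trend, means of the 3 groups over all 9 arrays), with Benjamini-Hochberg adjustment over all of them and a threshold of 0.05. A gene was read by its brightest probe set. The number of arrays, 3 per group, limits the precision.

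The 8 genes, the pathway list and the marker lists were chosen with earlier results of these data known. The text names all 8 genes with every probe set, in each role the 3 called genes with the largest change in each strain, any called between the strains, and the 5 genes most like *Ripk3* and *Casp8*. Marker genes, ligands, *Ripk4* and the genes below the filter are named beside a count. Mouse numbers are shared by the groups. The deviations of same-numbered mice of different groups correlated only weakly (r from -0.0082 to 0.164 over 9 pairs, 7 of them above 0), so the main model has no block. Differently numbered mice were not compared in this way. Filters, scalings, added signal, variance models, group subsets, probe set averaging, a replicate block and leaving out each mouse were tried, and the model was tested on simulated data. Nothing says that mouse numbers mark litters or days. Promoters were matched by symbol for 7 of the 8 genes. Figures were drawn with matplotlib 3.10.9 in Python 3.11.15.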

Additional observations from a re-analysis of the deposited data

Results flagged for a closer look

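*Rnf31*, the catalytic subunit of the linear ubiquitin ligase that acts on Ripk1 complexes, passed the test of the difference between the mutants, by a narrow margin. Its signals were 479.1, 579.4 and 433.9 for the wild-type mice, 296.9, 341.3 and 247.7 for *Winnie* and 458.9, 516.3 and 581.0 for *Eeyore*, and all *Winnie* mice lay below all others. The difference between *Eeyore* and *Winnie* mice was 0.82 on the log2 scale (adjusted p = 0.0442 in limma). The call was lost in 14 of the 19 other settings and held in 5, and over them its adjusted p in limma ranged from 0.0386 to 0.181.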

How the results depend on the processing

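Of the 8 calls of the 7 genes against wild-type, 6 held under every other setting, the epithelial scale added after the data were seen included. They were *Ripk3* and *Casp8* in both strains, and *Mlkl* and *Tradd* in *Eeyore* mice. Leaving out each mouse in turn left 3 to 4 genes called in *Winnie*, 4 to 4 in *Eeyore* and 0 to 0 between the mutants. Relative to the epithelial markers, 2 were called in *Winnie* mice. For the other pathway genes called in *Winnie* mice (11), leaving out a mouse gave 7 to 14 (7 without *Winnie* mouse 2 or wild-type mouse 2), median centring 32, averaging probe sets 3 and the epithelial scale 20. In *Eeyore* mice (17) leaving out a mouse gave 10 to 17 (10 without wild-type mouse 2), no intensity trend 11, averaging probe sets 10 and the epithelial scale 30. Between the mutants (1) leaving out a mouse gave 0 to 3, with 3 without *Eeyore* mouse 1. No filter, the stricter filter, median centring, no trend, only the 2 groups compared, averaging probe sets and the epithelial scale gave 0. Of 27 calls of named pathway genes, 5 held under every setting other than the epithelial scale, and 3 of these on that scale too. Median centring reversed *Tab2* in *Winnie* (0.36) and *Birc3* in *Eeyore* mice (0.0069), and averaging probe sets reversed *Parp1* (-0.30) and *Gsdme* (-0.10) in *Eeyore* mice, the last by its opposed probe sets. Median centring moves every fold change of a comparison by the same amount, here from -0.05 for *Tab2* and from -0.32 for *Birc3*. The tested *Parp1* probe sets gave 0.43, 0.36 and 0.08 in *Eeyore* mice. The reversal of *Parp1* therefore came from a further probe set, below the filter on low signals, that the average takes in.

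With mouse number as a replicate block, 4 of the 7 genes were called in each strain and 0 between the mutants, and 12, 15 and 1 of the pathway genes, the last not *Rnf31*. The groups share only a number. Dim transcripts, among them *Fasl* and *Tnf*, lay below the filter on low signals, so their levels were not compared. The p-values rest on the spread between mice within a group, pooled over the 3 groups. That spread was drawn toward an intensity trend over all tested probe sets.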
